A study of Mus musculus with 2 samples.

Results

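Lymphatic endothelial cells of the mouse right ventricle are described here from droplet barcodes chosen by their measured transcripts of the lymphatic markers Prox1, Mmrn1, Flt4, Reln and Lyve1. A barcode needed at least 500 UMIs (unique molecular identifiers, each counting 1 captured RNA molecule), Ttn and Ryr2 together below 2% of its UMIs, at least 3 UMIs of the 5 markers with at least 1 of Prox1 or Mmrn1, and at most 1 UMI of the macrophage genes C1qa, C1qb, C1qc, Mrc1 and F13a1. This rule found 305 of 22183 barcodes, 73 in library 1 and 232 in library 2. They were set against 2717 other endothelial barcodes, which met the same limits on UMIs, heart muscle and macrophage transcripts, held at least 3 UMIs of Flt1, Pecam1, Cdh5 and Ptprb and held none of Prox1 or Mmrn1. Both libraries came from C57/BL6J pups that were CBP flox/flox and p300 flox/flox and also Trap flox/flox (trap in the label of library 2). AAV9, an adeno-associated virus that reaches the heart, was given on postnatal day 1 for p300/CBP knockout, and right ventricles were collected on postnatal day 21. All animals carried the floxed alleles and received virus, so there was 1 group of 2 libraries with no control, and no level below measures an effect of the knockout. The labels do not describe the Trap allele, the promoter in the virus or how many pups went into a library. The p-values rest on how the class difference varied between these 2 libraries, which may be technical, and on a spread shared across genes. No other spread enters them. The tissue had been frozen and digested with collagenase, and the protocol adds an enrichment of CD45-positive cells on magnetic beads, so shares of barcodes are not shares of the tissue.

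Lymphatic endothelial cells line the vessels that take up fluid, macromolecules and immune cells from tissues and return them to the veins. Prox1 is the transcription factor that sets and keeps their identity, with Sox18 and Nr2f2 acting before it, and Flt4 (VEGFR3) is the receptor through which the growth factor Vegfc drives their growth. In the heart, lymphatic vessels drain the interstitial fluid of the myocardium, and Reln and Lyve1 mark their endothelium.

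The promoter windows of Prox1, the core gene of the rule, and of 3 genes that set lymphatic barcodes apart outside the rule are shown. They were searched for motifs of factors known in lymphatic endothelium, and the windows shown for Tbx1 and Tc2n held none of these. Each is the 120 bases before a RefSeq transcript start in build GRCm38.p6, all on the minus strand, and capitals mark the NFAT core GGAAAA or its reverse complement TTTTCC.
Prox1 (chr1:190170828-190170947): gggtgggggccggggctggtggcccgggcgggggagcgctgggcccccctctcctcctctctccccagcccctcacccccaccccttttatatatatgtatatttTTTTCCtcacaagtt
Ccl21a (chr4:42773992-42774111): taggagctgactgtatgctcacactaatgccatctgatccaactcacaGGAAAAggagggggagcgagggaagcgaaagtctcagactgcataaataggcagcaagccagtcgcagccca
Tbx1 (chr16:18590672-18590791): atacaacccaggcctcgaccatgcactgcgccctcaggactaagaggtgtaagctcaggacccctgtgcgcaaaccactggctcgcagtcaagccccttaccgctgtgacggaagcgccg
Tc2n (chr12:101718524-101718643): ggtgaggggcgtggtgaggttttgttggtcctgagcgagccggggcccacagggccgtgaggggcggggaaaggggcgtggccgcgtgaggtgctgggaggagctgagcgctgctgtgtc
On GRCm38 the genes themselves lie on the minus strands of chr1:190118035-190170714 for Prox1, chr4:42772860-42773993 for Ccl21a, chr16:18580979-18590671 for Tbx1 and chr12:101645443-101718523 for Tc2n. Of 13 genes, Prox1 and the 12 that led the comparison with other endothelial barcodes, 10 had RefSeq entries, in 15 windows, and Il7 and Scn3a were among those with no entry. Both strands were searched for the SOX core ACAAT, the nuclear receptor half-site AGGTCA, the GATA motif AGATAA, the forkhead core TGTTTAC and GGAAAA. The NFAT core stood in 2 of the 15 windows, at bases -72 to -67 of Ccl21a and, reversed, at -15 to -10 of Prox1, against 9.34% of all 32446 windows of that length. ACAAT stood in 1 of the 15 windows, that of Sh3gl3, against 13.7% of all windows. The half-site, the GATA motif and the forkhead core stood in none of the 15, against 6.93%, 4.4% and 1.37% of all windows, and no match overlapped another motif. A match describes the letters of a window and is not a bound site.

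Library 1 held 12736 barcodes and 57982200 UMIs, and library 2 held 9447 barcodes and 50199793 UMIs. Lymphatic barcodes made up 0.573% of library 1 (95% exact binomial interval 0.45 to 0.72) and 2.46% of library 2 (2.15 to 2.79). Of lymphatic and other endothelial barcodes together they made up 9.07% of 805 in library 1 (7.18 to 11.3) and 10.5% of 2217 in library 2 (9.22 to 11.8). The 2 libraries thus lay apart in the share of all barcodes, while the intervals overlapped in the share of endothelial barcodes. In sums over barcodes, fewer cells with a transcript and less of it per cell cannot be told apart. All such intervals cover counting error only. Lymphatic barcodes had medians of 3489 and 4911 UMIs in libraries 1 and 2, against 1837.5 and 2925 UMIs in other endothelial barcodes. The sums used for testing held 342014 and 1428280 UMIs of lymphatic barcodes, against 1686452 and 7025254 UMIs of other endothelial barcodes, so library 1 sets the lower limit of detection. Between the libraries 17 barcode sequences were shared, of which 0 in library 1 and 2 in library 2 were lymphatic.

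The 305 barcodes were not all alike in how firmly they met the rule. They carried a median of 8 UMIs of the 5 markers in library 1 (3 to 78) and of 23 in library 2 (3 to 163). All 5 markers were seen in 22 barcodes of library 1 (30.1%) and 87 of library 2 (37.5%), and a single marker in 13 (17.8%) and 17 (7.33%). At the threshold, 44 members held exactly 3 marker UMIs and 22 held 4, while 151 barcodes that met all other terms held 2 and 628 held 1. Of the members 16 had no UMI of the 4 endothelial genes and 253 had at least 3.

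Ccl21a, a chemokine of lymphatic endothelium that the rule did not use, was found in 169 of 204 barcodes with 10 or more marker UMIs (82.8%, 77.0 to 87.7) and in 17 of 101 with 3 to 9 (16.8%, 10.1 to 25.6). Within the 101 it was found in 13 of 35 with 5 to 9 marker UMIs (37.1%, 21.5 to 55.1), namely 9 of 14 in library 1 and 4 of 21 in library 2, and in 4 of 66 with 3 or 4 (6.06%, 1.68 to 14.8). The 101 were not shallower: their median was 4482 UMIs, against 4408.5 in those with 10 or more. In both libraries they carried endocardial transcripts, given in CPM (counts per 1000000 UMIs of the class in that library). In library 2 Npr3 stood at 976 and Vwf at 660 CPM in barcodes with 3 to 9 marker UMIs. Those with 10 or more had 179 and 100 CPM. The same values in library 1 were 174 and 190 CPM, against 0 and 6.56 CPM. In library 1 the 24 barcodes with 3 or 4 marker UMIs carried Nppa, a natriuretic peptide of atrial muscle, at 3610 CPM and the liver enzyme gene Cps1 at 972 CPM. The 14 with 5 to 9 had Nppa at 109 CPM and Cps1 at 0, and the 35 with 10 or more had 32.8 and 6.56 CPM. Of the 38 barcodes with 3 to 9 in that library, 4 held 10 or more UMIs of liver transcripts. By Ccl21a the label lymphatic endothelial therefore fits the 204 barcodes more closely than the 66 with 3 or 4 marker UMIs, and the 35 with 5 to 9 lay between. Values below are over the 305 unless the 204 are named. The 204 supplied 152441 of the 342014 UMIs in the lymphatic sum of library 1 and 966213 of the 1428280 in library 2. The rest came from the 101, so they weigh more on the levels of library 1. Of 303 list members tested in both sets against other endothelial barcodes, 46 were called in one set and not in the other, 0 were called in opposite directions, and 39 differed in sign, of which 4 were called over the 305.

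**Figure D1:**
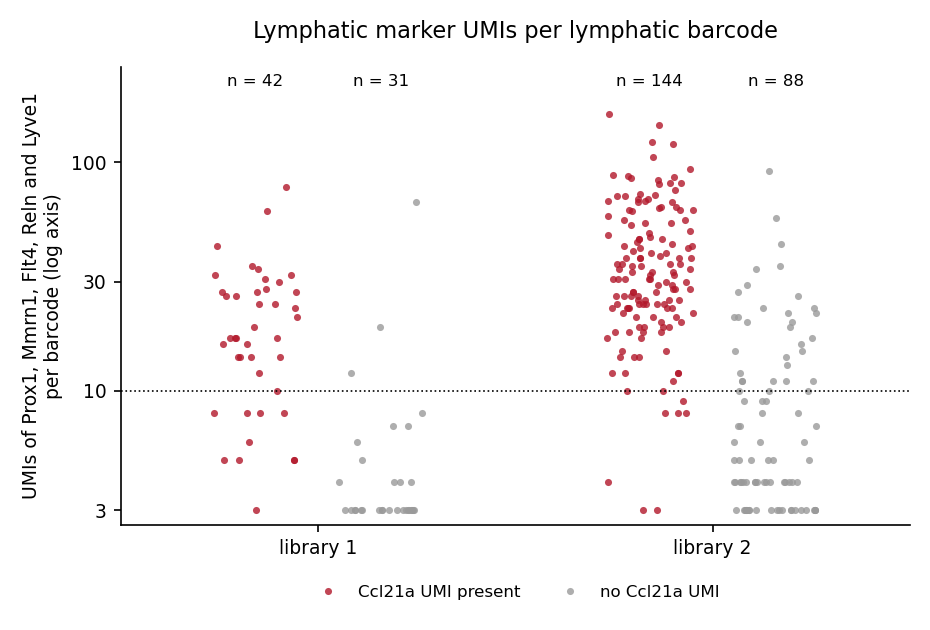
UMIs of Prox1, Mmrn1, Flt4, Reln and Lyve1 in each of the 305 lymphatic barcodes (log axis), by library, split by whether the barcode held a Ccl21a UMI; each point is a barcode, n is the number of barcodes and the dotted line is at 10. Barcodes with Ccl21a lie mostly above the line and those without it lie mostly below, in both libraries.

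The genes used by the rule are given as a description, since it fixed their direction. Prox1 stood at 877 and 1060 CPM in lymphatic barcodes of libraries 1 and 2 and at 0 by rule in other endothelial barcodes. Mmrn1, a secreted multimerin of endothelium, stood at 906 and 1340 CPM, also against 0 by rule. Reln, the extracellular glycoprotein reelin, had 675 and 1470 CPM in lymphatic barcodes, against 7.12 and 7.69 CPM. Flt4 had 494 and 571 CPM against 37.4 and 35.9 CPM, and the hyaluronan receptor gene Lyve1 had 237 and 297 CPM against 29.1 and 48.7 CPM. Lyve1 also stood at 169 and 213 CPM in macrophage barcodes. Prox1 was the most widely found of the 5, with a UMI in 90.4% and 94.8% of lymphatic barcodes, and Lyve1 the least, in 42.5% and 50.9%. A UMI of Prox1 or Mmrn1 was not particular to members. Of 6758 barcodes with at least 500 UMIs and such a UMI, 5536 had Ttn and Ryr2 at or over 2%. Prox1 was the only marker seen in 26 of the 101 members with 3 to 9 marker UMIs and in 4 of the 204. The general endothelial genes ran the other way: Flt1 (VEGFR1) had 225 and 331 CPM in lymphatic barcodes against 1430 and 1350 CPM, and Pecam1 had 459 and 769 CPM against 1140 and 1510 CPM.

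Outside the 16 genes of the rule, 11468 genes were tested, and a gene was called at an adjusted p under 0.05 (edgeR quasi-likelihood, library as a block) and at least a 2-fold difference. Against other endothelial barcodes 521 genes were called higher in lymphatic barcodes, 4.54% of those tested, and 506 were called lower, 4.41%. In both libraries taken alone, 364 of the higher and 351 of the lower genes differed at least 2-fold. In the 204 barcodes with 10 or more marker UMIs the counts were 488 higher (4.47%) and 641 lower (5.87%) of 10918, with 381 and 430 genes shared with the calls over all 305. Without the library block 26 higher and 1 lower gene were called, so the calls rest on comparing the classes within each library.

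Tbx1, a T-box transcription factor needed for lymphatic growth in mouse, had 96.5 and 97.3 CPM in lymphatic barcodes, against 0 and 0.285 CPM in other endothelial barcodes. That is 172 UMIs against 2, a ratio of 423 with an exact counting interval of 115 to 3520. Ccl21a had 810 and 987 CPM against 6.52 and 6.69 CPM, a log2 difference of 7.10 ± 0.26 (SE, adjusted p 5.44e-16). In both genes the 2 libraries lay close together and far above every value of the other class. Il7, the cytokine that sustains lymphocytes, had 99.4 and 109 CPM against 0 and 2.14 CPM (log2 difference 5.97 ± 0.37). Dtx1, a ubiquitin ligase that modulates Notch signalling, had 146 and 188 CPM against 1.78 and 0.996 CPM (7.18 ± 0.33), and Tc2n, which encodes a protein with tandem C2 domains, had 360 and 791 CPM against 5.93 and 3.84 CPM (7.17 ± 0.31). All 5 stood higher in the 204 barcodes, where Ccl21a had 1610 and 1430 CPM, Tbx1 171 and 137 CPM, Il7 190 and 155 CPM, Dtx1 289 and 262 CPM, and Tc2n 741 and 1140 CPM. The remaining 7 of the 12 leading genes had log2 differences between 5.27 and 5.85.

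Among those 7, Apba2, an adaptor that binds the amyloid precursor protein, had 126 and 202 CPM in lymphatic barcodes against 1.19 and 3.7 CPM. Nrcam, a cell adhesion molecule of axons, had 78.9 and 94.5 CPM against 1.19 and 1.99 CPM, and the voltage-gated sodium channel gene Scn3a had 284 and 580 CPM against 11.3 and 12.2 CPM. Each value in lymphatic barcodes was over every value in other endothelial barcodes. Sgsm1, a regulator of small GTPases, and Sh3gl3, an endophilin of endocytosis, also led, with log2 differences of 5.75 ± 0.37 and 5.59 ± 0.38. In library 1 alone the difference of Sh3gl3 was 3.13. A830019P07Rik was also among the 12, at 96.5 and 98.0 CPM against 3.56 and 1.85 CPM.

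Among the 12 genes lowest in lymphatic barcodes, Aplnr, the apelin receptor of sprouting blood vessels, had 8.77 and 4.2 CPM in lymphatic barcodes against 103 and 55.7 CPM, a log2 difference of -3.68 ± 0.36. Dach1, a transcription factor of coronary vessels, had 99.4 and 104 CPM against 1040 and 890 CPM (-3.23 ± 0.22). Both lay far below other endothelial barcodes in each library, and in the 204 barcodes Aplnr had 0 and 2.07 CPM and Dach1 32.8 and 39.3 CPM. Slc28a2, a nucleoside transporter, had 29.2 and 7.0 CPM against 221 and 133 CPM, and Ly6c1, a surface protein of capillary endothelium, had 26.3 and 10.5 CPM against 238 and 103 CPM. Gm12002 (-4.04), Efr3b (-3.84), Slc26a10 (-3.64), C1qtnf9 (-3.59), Lhx6 (-3.50), Rgcc (-3.29), Ccdc85a (-3.27) and Mcf2l (-3.26) made up the rest, on the same log2 scale.

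**Figure D2:**
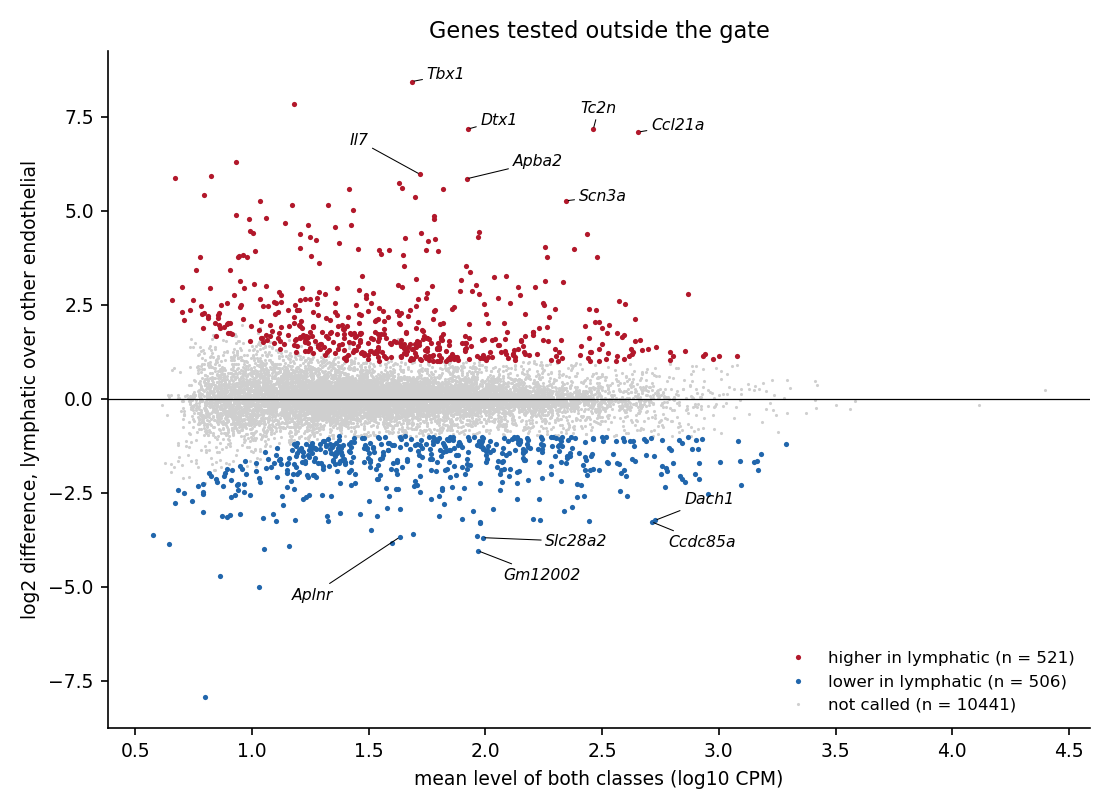
Log2 difference of lymphatic over other endothelial barcodes (vertical axis) against the mean level of both classes in log10 CPM (horizontal axis) for the 11468 genes tested outside the rule; each point is a gene, coloured by its call. Tbx1, Dtx1, Tc2n and Ccl21a stand highest among the labelled genes, and Gm12002, Slc28a2 and Aplnr lowest; the fitted value of Tbx1 depends on the prior count, since the other class held 2 UMIs.

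Counts of list members below are to be read against the shares over all genes tested. Against other endothelial barcodes these were 4.54% higher and 4.41% lower, and in the 204 barcodes 4.47% and 5.87%. Lymphatic surface and secreted genes outside the rule had the highest median of 21 gene lists. Of 22 tested, 18 were called higher and 0 lower, with a median log2 difference of 2.43 against 0.02 over all genes tested, and in the 204 barcodes the counts were also 18 and 0, with a median of 2.97. The list was written with earlier results of these data known. Pdpn, the glycoprotein podoplanin that lymphatic vessels need to stay apart from blood vessels, had 81.9 and 130 CPM in lymphatic barcodes against 7.71 and 17.4 CPM (log2 difference 2.99 ± 0.25). Clca3a1, a surface marker of mouse lymphatic vessels, had 146 and 212 CPM against 2.37 and 13.1 CPM (4.31 ± 0.27). Thy1, a surface glycoprotein, had 93.6 and 141 CPM against 1.78 and 8.68 CPM (4.25 ± 0.29). In all 3 genes the classes did not overlap, and library 2 was the higher within each class. Here and below, such statements describe genes already called and add no support to the calls. The share of all genes without overlap was not counted. Pard6g, a cell polarity gene (4.04), Fgl2, a secreted fibrinogen-like protein (3.12), and Klhl4 (2.04) were also called. Stab1, a scavenger receptor, had 523 and 503 CPM against 127 and 173 CPM (1.74 ± 0.19). The 4 not called were Nrp2, Tie1, Piezo1 and Emilin1. Efemp1, a fibulin called at 1.26, was at 2.04 in library 1 alone and at -0.07 in the 204 barcodes, and Nrp2 was called there.

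The shares of barcodes with a UMI followed the levels. Ccl21a was found in 57.5% and 62.1% of lymphatic barcodes in libraries 1 and 2, against 1.37% and 2.37% of other endothelial barcodes. Since the classes differed in depth, each barcode was also thinned to 1000 UMIs, which left out 2 and 1 lymphatic barcodes, against 74 and 47 other endothelial barcodes. After thinning, Ccl21a was found in 49.3% and 48.5% against 0.912% and 0.671%. Tbx1 was found in 27.4% and 38.8% of lymphatic barcodes, 15.5% and 11.7% after thinning, against 0 of 732 (an upper limit of 0.503%, exact binomial) and 0.101%. Ccl21a has near-identical copies in the mouse genome. Of its 821 distinct stretches of 50 bases, 588 (71.6%) also stand in at least 1 of 4 other genes, so its counts are uncertain to that extent. Of those genes Gm21541 held 4 UMIs in lymphatic barcodes of library 2, and Ccl21b, Gm10591 and Gm13304 held 0 in both classes.

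Genes that guide immune cells divided. Of 15 tested chemokine, adhesion and sphingosine phosphate genes, 4 were called higher (Ccl21a, Il7, Ackr2 and Spns2) and 4 lower (Cxcl12, Icam1, Vcam1 and Cxcl16), and the same 8 genes were called in the 204 barcodes. Ackr2, a receptor that scavenges inflammatory chemokines on lymphatic endothelium, had 14.6 and 36.4 CPM in lymphatic barcodes against 5.93 and 5.27 CPM, with a log2 difference of 2.37 over both libraries and 1.01 in library 1 alone. Spns2, which exports sphingosine 1-phosphate, had 96.5 and 168 CPM against 72.9 and 63.8 CPM, at 1.03 over both libraries and 0.33 in library 1 alone. In both genes the difference was smaller in library 1. Cxcl12, a chemokine of blood endothelium and stroma, had 43.9 and 12.6 CPM against 146 and 84.7 CPM (-2.34 ± 0.28). Icam1, an adhesion molecule for leukocytes, had 20.5 and 20.3 CPM against 46.8 and 73.3 CPM (-1.72 ± 0.29). The sphingosine phosphate receptor gene S1pr1 was not called against other endothelial barcodes, at 105 and 110 CPM against 227 and 158 CPM.

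Of 18 transcription factors of endothelial and lymphatic fate, 4 were called higher and 2 lower, and in the 204 barcodes 5 and 3. Besides Tbx1, Maf, a leucine zipper factor, had 339 and 351 CPM in lymphatic barcodes against 13 and 33.2 CPM (log2 difference 3.78 ± 0.24). Nfatc1, which acts with Foxc2 in lymphatic vessel patterning, had 216 and 367 CPM against 71.2 and 83.0 CPM (1.91 ± 0.20). Foxc2, required for lymphatic valves, had 20.5 and 32.2 CPM against 2.96 and 5.84 CPM (2.5 ± 0.44). In these 3 genes both lymphatic values exceeded both values of the other class. Nr2f2, which acts before Prox1, had 213 and 307 CPM against 119 and 187 CPM (0.74 ± 0.19), under the 2-fold limit, and was called at 1.23 in the 204 barcodes. Sox18, the other factor that acts before Prox1, had 35.1 and 56.7 CPM against 56.9 and 35.6 CPM, so that the classes overlapped (0.24 ± 0.27, adjusted p 0.737). In the 204 barcodes it had 72.2 and 73.5 CPM and was not called either, at 0.80 ± 0.28. Its relatives were called lower: Sox17, an arterial factor, had 23.4 and 3.5 CPM against 51.6 and 32.6 CPM, at -2.25 over both libraries and -1.14 in library 1 alone. Sox7 had 17.5 and 42.0 CPM against 83.6 and 68.9 CPM, at -1.10 over both libraries and -2.19 in library 1 alone. Gata2, Foxc1, Foxo1, Klf2, Klf4, Erg, Tal1, Hhex and Meis2 were not called over the 305, and Foxc1 was called lower, at -2.01, in the 204.

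Of 17 VEGF and angiopoietin genes, 2 were called higher and 2 lower, and 3 and 2 in the 204 barcodes. Over the 305 that is 11.8% in each direction, against 4.54% and 4.41% of all genes tested. The median log2 difference was 0.10 over the 305 and -0.16 in the 204. Among ligands, Vegfc, the main growth factor of lymphatic vessels, had 40.9 and 46.2 CPM in lymphatic barcodes against 164 and 220 CPM, a log2 difference of -2.21 ± 0.23. Angpt2, a ligand of the receptor Tek that is needed for lymphatic remodelling, had 67.2 and 96.6 CPM against 28.5 and 21.6 CPM, at 1.84 over both libraries and 1.12 in library 1 alone. Pgf, a placental growth factor, had 35.1 and 24.5 CPM against 4.74 and 8.54 CPM (1.90 ± 0.42). The ligand genes thus moved in both directions, with no overlap between the classes in these 3. Among receptors, Nrp1, a co-receptor of blood endothelium, had 427 and 352 CPM against 1180 and 1310 CPM (-1.72 ± 0.20). Nrp2, the co-receptor of Vegfc, had 634 and 614 CPM against 406 and 319 CPM (0.78 ± 0.19), and was called at 1.41 in the 204 barcodes, where its levels were 1160 and 856 CPM. Kdr (VEGFR2) was not called, at 298 and 271 CPM against 292 and 208 CPM, nor was Tek, at 272 and 444 CPM against 586 and 797 CPM (-0.98 ± 0.19). Ccbe1, Adamts3 and Svep1, whose products process or assist Vegfc, were not called either.

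Valve and collecting vessel genes included 8 called higher and 1 lower of 20, and the same 9 genes in the 204 barcodes. Besides Foxc2, Celsr1, a planar polarity cadherin of lymphatic valves, had 93.6 and 116 CPM in lymphatic barcodes against 4.15 and 8.11 CPM (log2 difference 3.95 ± 0.27). Cldn11, a tight junction claudin, had 52.6 and 56.0 CPM against 0.593 and 4.55 CPM (3.99 ± 0.41). Fn1, fibronectin, had 418 and 572 CPM against 89.5 and 181 CPM (1.88 ± 0.20), and Itga9, the integrin chain that assembles it in valve leaflets, had 529 and 673 CPM against 166 and 353 CPM (1.24 ± 0.20). The classes did not overlap in these genes. Fat4, a cadherin of valve polarity, was the gene called lower, at 23.4 and 60.2 CPM against 125 and 110 CPM, at -1.27 over both libraries and -2.38 in library 1 alone. The connexin gene Gja4 was called higher, at 84.8 and 99.4 CPM against 31.4 and 38.3 CPM, and Gja1 was not called, at 260 and 199 CPM against 208 and 95.5 CPM. Adm, Calcrl and Ramp2, ligand and receptor parts of adrenomedullin signalling, were not called.

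Among 16 tested cell junction genes 1 was called higher and 2 lower, against 2 and 4 in the 204 barcodes. Cldn5, the main claudin of endothelial tight junctions, had 465 and 447 CPM in lymphatic barcodes against 152 and 51.8 CPM, a log2 difference of 2.40 over both libraries and 1.54 in library 1 alone. Jam2, a junctional adhesion molecule, had 58.5 and 40.6 CPM against 301 and 280 CPM (-2.66 ± 0.23). Esam, a related adhesion molecule, had 32.2 and 61.6 CPM against 250 and 164 CPM, at -1.88 over both libraries and -2.95 in library 1 alone. The catenin genes Ctnna1, Ctnnb1 and Ctnnd1 and the scaffolds Tjp1, Magi1 and Afdn were not called, with log2 differences between -0.69 and 0.18.

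Of 20 semaphorin, Slit, netrin and ephrin genes, 6 were called higher and 2 lower, and 5 and 1 in the 204 barcodes. Sema3d, a secreted semaphorin, had 330 and 790 CPM in lymphatic barcodes against 24.3 and 56.4 CPM (log2 difference 3.77 ± 0.21). Sema3a, a repulsive cue known in lymphatic valves, had 158 and 447 CPM against 26.7 and 79.3 CPM (2.49 ± 0.20). Ntn1, netrin, had 520 and 648 CPM against 131 and 246 CPM (1.64 ± 0.20), and its receptor gene Unc5b had 114 and 127 CPM against 51.0 and 38.6 CPM (1.49 ± 0.21). All 4 were also called in the 204 barcodes, and in each the classes did not overlap. Robo1 was called higher at 1.26, with 1.90 in library 1 alone, and Robo4 lower at -1.09, and neither was called in the 204 barcodes, at 0.99 and -0.83. Sema3g was called lower, at -2.13 over both libraries, -0.97 in library 1 alone and -4.50 in library 2 alone. Efnb2 and its receptor gene Ephb4 were not called.

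Of 15 tested BMP and TGF-beta genes, 2 were called higher and 5 lower, the same 7 in the 204 barcodes. Smad1, a transducer of BMP signals, had 333 and 463 CPM in lymphatic barcodes against 157 and 175 CPM (log2 difference 1.25 ± 0.19), and the receptor gene Tgfbr2 had 395 and 494 CPM against 176 and 246 CPM (1.05 ± 0.19). The inhibitory Smad7 had 58.5 and 86.1 CPM against 190 and 256 CPM (-1.64 ± 0.21), and Smad6 had 90.6 and 151 CPM against 158 and 415 CPM (-1.26 ± 0.21). Against other endothelial barcodes the 2 genes called higher encode a transducer and a receptor, and the inhibitory Smads were called lower. The calls against parts of that class, given below, differed. Bmp6, a ligand of endothelium, had 161 and 377 CPM against 783 and 1060 CPM (-1.84 ± 0.22), and the co-receptor gene Eng was lower at -1.08 ± 0.20. Id2, a target gene, was called at -1.28 but was at 0.10 in library 1 alone. Of 13 Notch receptors, ligands and targets, Notch4 (-2.14 ± 0.31) and Jag2 (-1.41 ± 0.37) were called lower and 0 higher. The 2 make up 15.4% of the list, against 4.41% of all genes tested. Jag2 was at -2.33 in library 1 alone. Notch2 in the 204 barcodes was called higher, at 1.24, Notch4 was called lower, and Jag2 was not called. The targets Hey1, Hey2, Heyl and Hes1 were not called.

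Scavenger receptor and caveolar genes were split evenly, with 3 of 13 tested called higher and 3 lower, the same 6 in the 204 barcodes, and a median of -0.08 over the 305 and 0.18 in the 204. Stab2, the relative of Stab1 that takes up hyaluronan, had 20.5 and 8.4 CPM in lymphatic barcodes against 3.56 and 0.996 CPM (log2 difference 2.77 ± 0.63), and Colec12, a collectin, had 216 and 252 CPM against 93.7 and 107 CPM (1.20 ± 0.19). Scarb1, the receptor for high-density lipoprotein, had 38.0 and 21.7 CPM against 153 and 86.7 CPM (-2.02 ± 0.24). Cav1 and Cav2 of caveolae were not called. Of 18 basement membrane and matrix genes 5 were called higher and 2 lower, and 4 and 3 in the 204 barcodes. Col18a1, whose collagen holds endostatin, had 193 and 195 CPM against 46.8 and 47.4 CPM (2.02 ± 0.20). Lama4, a laminin chain of vessel walls, had 813 and 1210 CPM against 317 and 523 CPM (1.26 ± 0.19). Hspg2, perlecan, was lower, at 251 and 263 CPM against 517 and 526 CPM (-1.04 ± 0.19). The collagens Col4a1 and Col4a2 and the laminins Lamb1 and Lamc1 were not called.

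Of 15 blood capillary genes 12 were called lower and 0 higher, with a median log2 difference of -2 against 0.02 over all genes tested. Among the 204 barcodes 12 were called lower and the median was -2.29, with Lpl called and Gpihbp1 not. Car4, a carbonic anhydrase on the capillary surface, had 14.6 and 8.4 CPM in lymphatic barcodes against 169 and 60.1 CPM (-3.11 ± 0.30). Meox2, a homeobox factor of fatty acid uptake in heart capillaries, had 67.2 and 101 CPM against 389 and 428 CPM (-2.26 ± 0.21). Fabp4, a fatty acid binding protein, had 447 and 190 CPM against 1720 and 929 CPM (-2.14 ± 0.21), and the fatty acid transporter Cd36 had 909 and 397 CPM against 2970 and 1620 CPM (-1.89 ± 0.20). The classes did not overlap in the 4 genes, and library 1 was the higher of the 2 within each class for all but Meox2. Fabp4 in the 204 barcodes stood at 72.2 and 119 CPM and Cd36 at 518 and 248 CPM.

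Arterial and venous genes differed in pattern. Of 15 arterial genes 4 were called higher and 5 lower, and 4 and 4 in the 204 barcodes. Mecom, a zinc finger factor of arterial and endocardial endothelium, had 368 and 490 CPM in lymphatic barcodes against 1690 and 2450 CPM (log2 difference -2.29 ± 0.21). Fbln5, an elastic fibre protein, had 129 and 160 CPM against 49.8 and 49.0 CPM (1.56 ± 0.20). Of 6 tested venous genes 4 were called lower against other endothelial barcodes, over the 305 and in the 204. The calls differed between parts of that class, as given below. Among the 4 was Vwf, von Willebrand factor, at 108 and 281 CPM against 550 and 1410 CPM (-2.35 ± 0.21). Vwf in the 204 barcodes stood at 6.56 and 100 CPM, the first of these below the limit of detection. Ephb4, the venous receptor of ephrin B2, was not called, at 146 and 264 CPM against 192 and 212 CPM. Of 13 nitric oxide, endothelin and coagulation genes 2 were called lower over the 305, Vwf and Ptgs1, while in the 204 barcodes 6 were called lower and 2 higher. The higher ones there were Procr (1.15 ± 0.32), the protein C receptor, and F8 (1.20 ± 0.31), coagulation factor VIII. Nos3, endothelial nitric oxide synthase, had 99.4 and 157 CPM against 191 and 291 CPM. Against other endothelial barcodes as a whole it was called only in the 204, at -1.01.

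**Figure D3:**
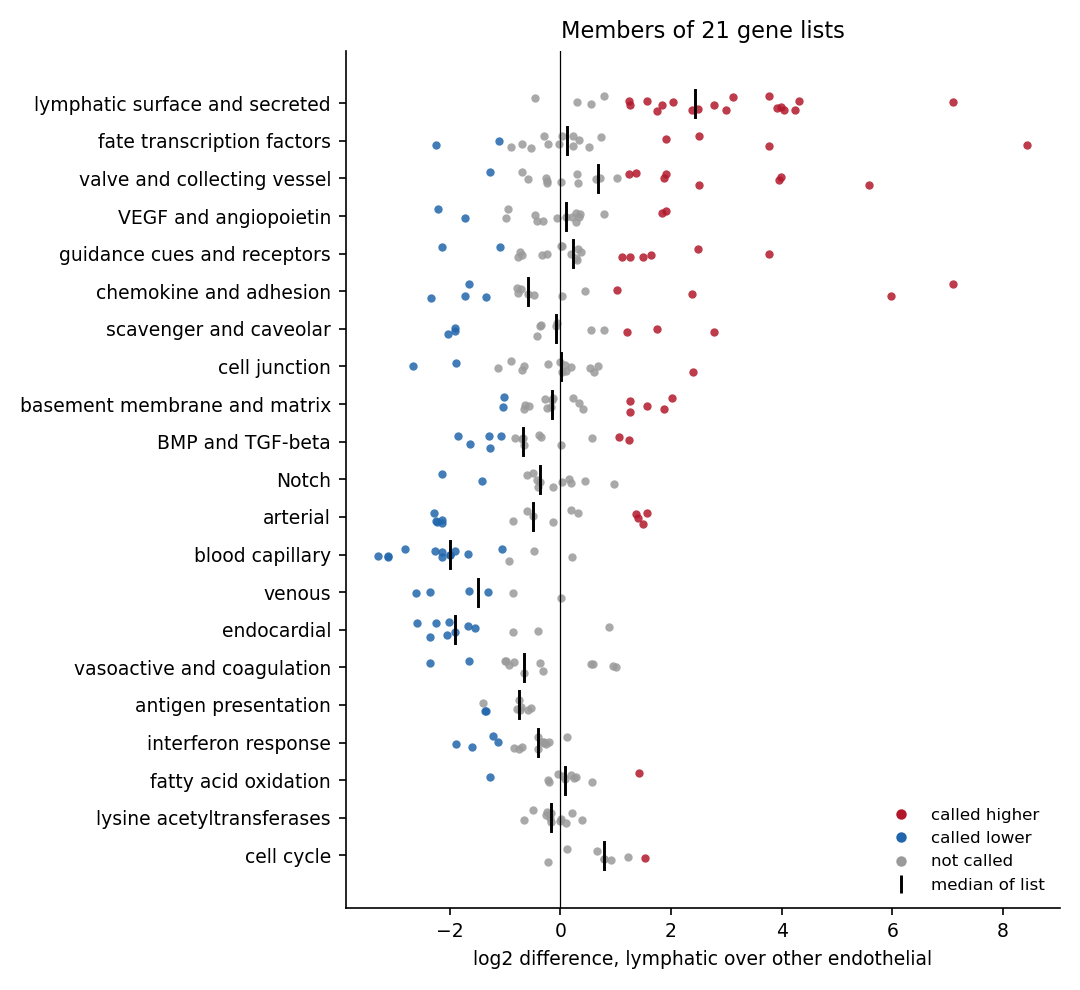
Log2 difference of lymphatic over other endothelial barcodes (horizontal axis) for the tested members of 21 gene lists (rows); each point is a gene, coloured by its call, and the bar is the median of the list. The lymphatic surface and secreted list has the highest median, 2.43, and the blood capillary list the lowest, -2, over the 305 barcodes.

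Of 11 endocardial genes 8 were called lower in lymphatic than in other endothelial barcodes, with a median log2 difference of -1.91, and the same 8 in the 204 barcodes, with a median of -3.13. Other endothelial barcodes were therefore split by Npr3, Nrg1 and Cytl1, genes of the endocardium, the inner lining of the heart. The 1411 vascular-gated barcodes, 569 and 842 in libraries 1 and 2, had none of their UMIs, and the 1047 endocardial-gated barcodes, 120 and 927, had at least 2; 259 barcodes with exactly 1 were in neither. Lymphatic barcodes had no limit on the 3 genes. They held 657, 321 and 91 UMIs of Npr3, Nrg1 and Cytl1, against 0 by rule in vascular-gated barcodes. Both comparisons came from 1 fit and share the lymphatic sums, so their values are set side by side only. Of 11527 genes tested outside 19 genes of the rules, 592 were higher (5.14%) and 588 lower (5.10%) in lymphatic than in vascular-gated barcodes. Against endocardial-gated barcodes 490 were higher (4.25%) and 445 lower (3.86%). Called higher in both were 280 genes and called lower in both 135. In the 204 barcodes, of 10956 genes, the counts against vascular-gated barcodes were 662 (6.04%) and 720 (6.57%), and against endocardial-gated barcodes 581 (5.30%) and 675 (6.16%).

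The lymphatic genes stood out against both. Of the 22 surface and secreted genes 18 were called higher against vascular-gated and 14 against endocardial-gated barcodes, and 0 lower in either, and in the 204 barcodes 18 and 17. Ccl21a had 810 and 987 CPM in lymphatic barcodes, against 7.83 and 7.38 CPM in vascular-gated and 0 and 6.98 CPM in endocardial-gated barcodes. Lyve1, a gene of the rule, had 3.48 and 6.15 CPM in vascular-gated but 112 and 82.3 CPM in endocardial-gated barcodes. Maf was at 4.04 and Nfatc1 at 1.94 on the log2 scale against vascular-gated barcodes, and at 3.49 and 1.86 against endocardial-gated barcodes. The surface genes not called against endocardial-gated barcodes included Stab1 (0.84), Itga9 (0.49) and Tll1 (0.99), which were called against vascular-gated barcodes (2.69, 1.96 and 2.04). In the 204 barcodes Stab1 and Tll1 were called against endocardial-gated barcodes too, at 1.39 and 1.61, as was Sox18, at 1.46. Nr2f2 was called against vascular-gated barcodes, at 1.02, and not against endocardial-gated barcodes, at 0.23. The reverse held for Nrp2, at 0.21 and 1.78, and Kdr, at -0.40 and 1.39. Of these 2 comparisons, Spns2 and Colec12 were called higher only against endocardial-gated barcodes, and the same held in the 204 barcodes. Cxcl12 was called lower only against vascular-gated barcodes, in both sets. Vcam1 and Cxcl16 were called lower against endocardial-gated barcodes in both sets, and against vascular-gated barcodes only in the 204. S1pr1 was called lower against vascular-gated barcodes over all members and not in the 204. The difference between the 2 comparisons was not tested.

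Khdrbs2, Cldn11 and Tnfaip8l3 entered the leading 12 against vascular-gated barcodes. Khdrbs2, an RNA-binding protein, had 11.7 and 91.7 CPM in lymphatic barcodes against 2.61 and 0 CPM, with a log2 difference of 5.97 over both libraries and 1.29 in library 1 alone. Tnfaip8l3, a phosphoinositide transfer protein, had 43.9 and 98.7 CPM against 0.87 and 2.05 CPM, at 5.49 over both and 3.45 in library 1 alone. Cldn11 had 52.6 and 56.0 CPM against 0 and 1.64 CPM. The capillary list again stood low, with 13 of 15 called lower and a median of -2.74, and its leading members were Rgcc (-4.20), Aqp7 (-3.97), a glycerol channel, and Car4 (-3.96). Against endocardial-gated barcodes 3 of the 15 were called higher and 2 lower, and 3 and 6 in the 204 barcodes. Gpihbp1, which holds lipoprotein lipase on capillaries, was at -1.89 against vascular-gated and 1.26 against endocardial-gated barcodes.

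Against endocardial-gated barcodes the 12 lowest genes were led by Myrip (-3.74 ± 0.30) and Enpp6 (-3.68 ± 0.29). Vwf had 108 and 281 CPM in lymphatic barcodes against 1700 and 2280 CPM (-3.46 ± 0.25). Tmem108 had 129 and 510 CPM against 2100 and 3520 CPM (-3.37 ± 0.28), and the cadherin gene Cdh11 had 78.9 and 348 CPM against 1030 and 1860 CPM (-3.03 ± 0.32). In these 3 genes library 2 was the higher within both classes, and the classes did not overlap. Smoc1 (-3.39), Col4a3 (-3.27), Plxnc1 (-3.20), Samd12 (-3.09), Mal (-3.06), Bace2 (-3.03) and Pdgfc (-2.88) completed them. Of 8 tested endocardial genes outside the rule 7 were called lower, here and in the 204 barcodes. Against vascular-gated barcodes 4 of the 8 were called higher in the 305, Cdh11, Tmem108, Smoc1 and Plvap, while in the 204 Cdh11 (1.45), Plvap (1.72) and Hapln1 (2.99) were called higher and Vwf (-1.84) lower. Tmem108 and Smoc1 were not called there, at 0.99 and 0.60. The split sorted only the other class by Npr3, Nrg1 and Cytl1, so it can itself move genes found together with them. These counts of endocardial genes are therefore a description, and the part of the split in them was not tested. In members of library 2 with 3 to 9 marker UMIs Tmem108 stood at 1170 CPM against 195 CPM in members with 10 or more. In library 1 it stood at 211 against 26.2 CPM. Of 13 nitric oxide, endothelin and coagulation genes 7 were called lower against endocardial-gated barcodes over the 305, Nos3 among them, and F8 higher. Against vascular-gated barcodes 0 were lower and Procr higher. In the 204 barcodes 7 and 2 were called lower, in the same order.

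**Figure D4:**
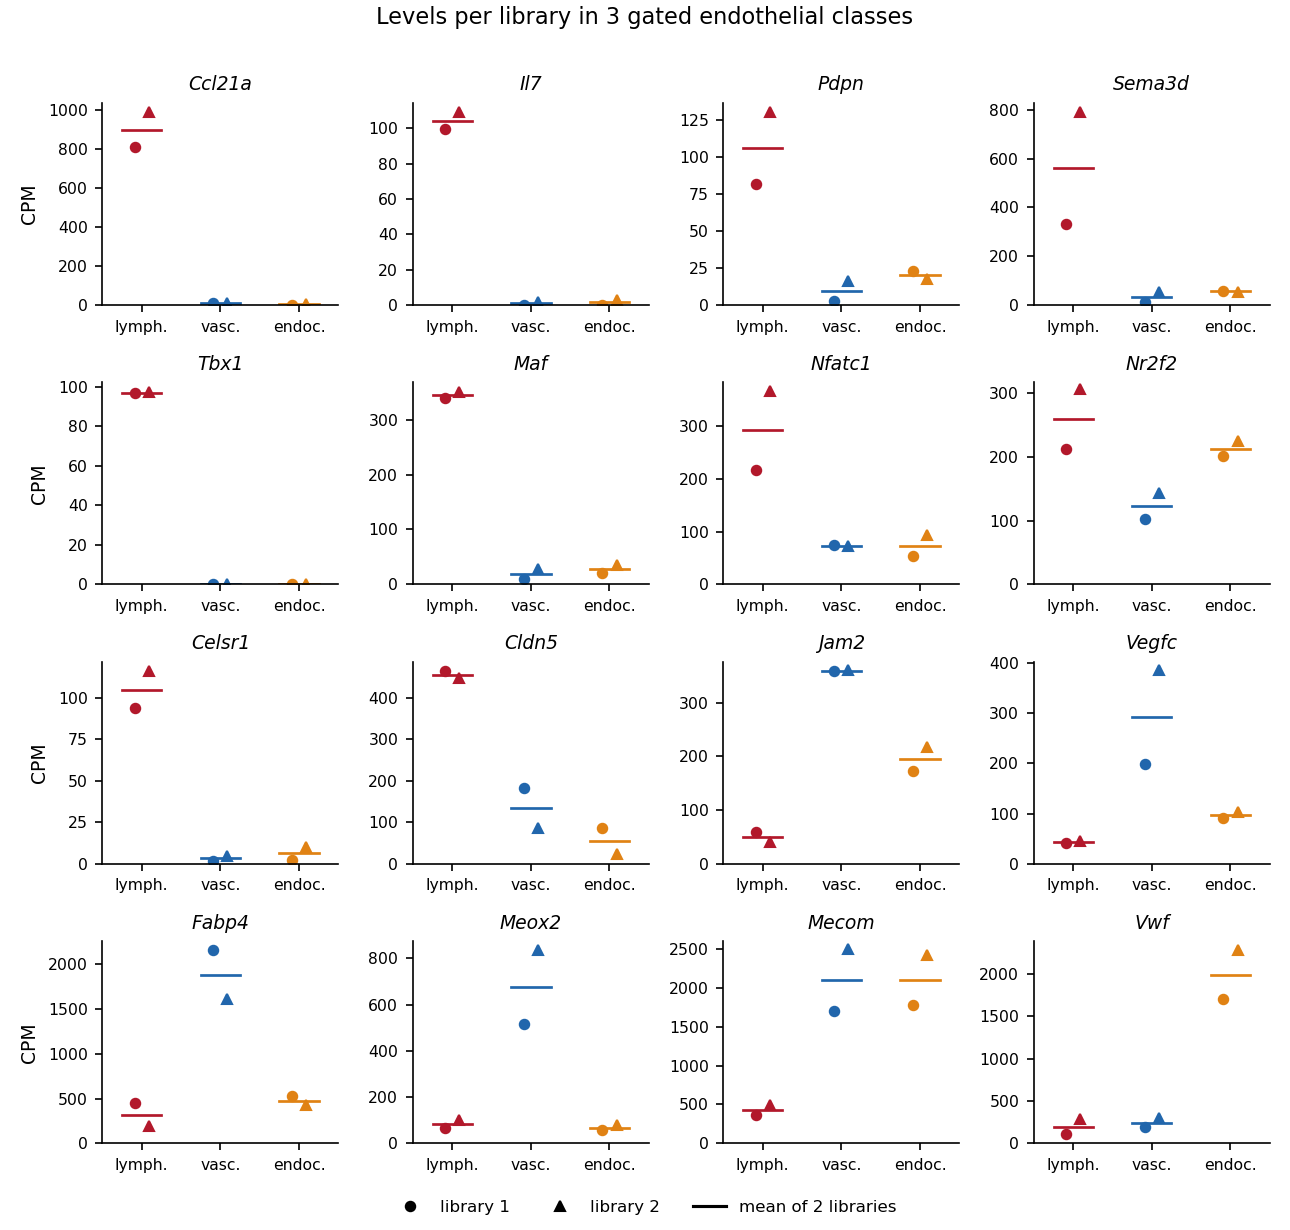
Levels in CPM of 16 genes in lymphatic (lymph.), vascular-gated (vasc.) and endocardial-gated (endoc.) barcodes; the circle is library 1, the triangle library 2 and the bar the mean of 2 libraries, and each panel has its own axis from 0. Ccl21a, Il7 and Tbx1 are near 0 outside lymphatic barcodes, Nr2f2 is nearly as high in endocardial-gated barcodes, and Vwf is high in endocardial-gated barcodes.

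Antigen presentation and interferon genes were at lower or similar levels in lymphatic barcodes. Of 9 tested antigen presentation genes 0 were called higher and 2 lower, Psmb8 and Tap1. The 204 barcodes had 3 others called lower in their place. These were B2m (-1.04 ± 0.20), the light chain of class I molecules, and the class I heavy chains H2-K1 (-1.36 ± 0.21) and H2-D1 (-1.05 ± 0.20). Over the 305, B2m had 161 and 230 CPM against 259 and 376 CPM. Of 15 interferon response genes 4 were called lower and 0 higher, Ifit3, Rsad2, Oasl2 and Iigp1, of which Rsad2 and Iigp1 were also called in the 204 barcodes. Oasl2 was at -1.22 over both libraries and -2 in library 1 alone. The class II genes Cd74, H2-Aa, H2-Ab1 and H2-Eb1 had too few counts to be tested.

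The targeted genes were measured in every sum. Ep300 (p300) had 117 and 151 CPM in lymphatic barcodes against 141 and 170 CPM in other endothelial barcodes (log2 difference -0.23 ± 0.19, adjusted p 0.59). Crebbp (CBP) had 380 and 491 CPM against 428 and 541 CPM (-0.18 ± 0.19, adjusted p 0.718). Tags from the 3' end count RNA whether or not a floxed exon is missing, so these levels check no deletion. Of 12 lysine acetyltransferase genes 0 were called by edgeR in either direction, against other endothelial, vascular-gated or endocardial-gated barcodes. Against other endothelial barcodes their log2 differences lay between -0.66 and 0.39. There 4.54% of all genes tested were called higher and 4.41% lower, so 0 of 12 lies near those shares. In that comparison Kat2b (p 0.0169) and Ncoa3 (p 0.00417) were below 0.05 before adjustment, both under 2-fold, and DESeq2 called 0 of the 12. Of 11 tested fatty acid oxidation genes Ppara was called higher and Pparg lower. That is 9.09% in each direction, against 4.54% and 4.41% of all genes tested. Ppara had 111 and 44.1 CPM against 33.8 and 18.6 CPM, a log2 difference of 1.42, and was at -0.36 in the 204 barcodes. Pparg, which was called at -1.27, was at -2.42 in library 1 alone, -0.68 in library 2 alone and -0.99 in the 204 barcodes. The gene of the 11 called in the 204 was Acadvl, which encodes a long-chain acyl-CoA dehydrogenase, at -1.21 there and -0.20 over the 305.

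Few lymphatic barcodes were in mitosis. At least 3 UMIs of 13 mitotic genes were found in 3 of 73 barcodes of library 1 (4.11%, 0.856 to 11.5) and 6 of 232 of library 2 (2.59%, 0.955 to 5.54). In other endothelial barcodes it was 6 of 732 (0.82%, 0.301 to 1.78) and 16 of 1985 (0.806%, 0.461 to 1.31). After thinning to 1000 UMIs, with at least 2 mitotic UMIs, the shares were 2.82% and 2.16% of lymphatic barcodes against 0.608% and 0.516%. The exact intervals of the classes overlapped in both libraries, before and after thinning. Among macrophage barcodes the unthinned shares were 8.79% and 5.76%. Of 8 tested cell cycle genes 1 was called, Kif11, a spindle motor, at 23.4 and 16.1 CPM in lymphatic barcodes against 8.3 and 5.27 CPM (log2 difference 1.54 ± 0.46), and it was also called in the 204 barcodes.

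Transcripts of other cell types were present in lymphatic barcodes. The summed level of 10 cardiomyocyte markers was 12000 and 2950 CPM, against 10600 and 2290 CPM in other endothelial barcodes and 23900 and 24000 CPM in cardiomyocyte barcodes. Of the 10 genes 0 were called over the 305 and 6 were called lower in the 204 barcodes. The 4 haemoglobin genes summed to 1130 and 517 CPM against 1890 and 1520 CPM, and all 4 were called lower in both sets. The 6 epicardial markers summed to 371 and 252 CPM against 174 and 211 CPM. Of these Krt19, Msln and Upk3b were called higher over the 305 and none of the 3 in the 204 barcodes, at -0.01, -0.10 and 0.17, and Wt1 was called lower in both. Krt19 was at 1.72 over both libraries, 2.63 in library 1 alone and 0.84 in library 2 alone. Macrophage markers outside the rule summed to 129 and 102 CPM against 151 and 161 CPM, with Adgre1, Cd68, Fcgr1 and Cd163 at 0 in library 1 and Fcgr1 at 0 in library 2. Fibroblast markers summed to 1300 and 1900 CPM against 1090 and 2650 CPM, and pericyte markers to 436 and 288 CPM against 556 and 388 CPM. Over the 305 Lum and Rgs5 were called lower among these, and in the 204 barcodes Dcn (-1.58), Abcc9 (-1.32) and Pdgfrb (-2.14) also. Smooth muscle markers summed to 652 and 156 CPM against 376 and 118 CPM, Schwann markers to 29.2 and 24.5 CPM against 21.9 and 50 CPM, and lymphocyte markers to 0 and 2.1 CPM against 1.19 and 4.13 CPM. Liver transcripts, a list of 15 genes written after they were seen, summed to 1790 and 28.7 CPM against 414 and 24.3 CPM, and 5 lymphatic barcodes of library 1 held 10 or more of their UMIs. The part of these transcripts in the differences above was not tested beyond the counts in the 204 barcodes and those without barcodes that held 10 or more liver UMIs, where 548 genes were called higher and 533 lower against other endothelial barcodes.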

How the data were processed

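Unique molecular identifier (UMI) counts per gene and cell barcode were deposited as 1 table for 2 single-cell RNA-seq libraries of right ventricle, and per the file headers Cell Ranger 6.0.0 made it. Without giving roles, the submitters' processing notes list fastp, Trimmomatic, Seurat, edgeR, GRCm38 and mm10. No source used here says whether introns were counted. The barcode suffix was matched to the number in the library title. The members, gene lists and comparisons were chosen with earlier results of these data known. No author annotation of cell types was used: barcodes were gated by the UMI limits given with the results, with no clustering. Counts were summed per library and class and tested with edgeR 4.0.16 (R 4.3.3): TMM scaling, filterByExpr, quasi-likelihood test, library as a block, since the 2 classes were captured together in each library, and Benjamini-Hochberg adjustment over all genes tested. A call needed an adjusted p under 0.05 and a 2-fold difference. Log2 differences are lymphatic over the other class, and SE is the size of the difference over the square root of F. The fit against other endothelial barcodes used 4 sums with 1 residual degree of freedom, and the split fit 6 sums with 2. The prior shared across genes weighed as 23.2 and 11.2 degrees of freedom, so small p-values rest mostly on it. Genes used by a rule (16, or 19 in the split comparisons) were kept out of the counts. On simulated counts, at an adjusted p under 0.05 alone, the comparison with other endothelial barcodes recovered 42.9% of 91 genes changed 2-fold and 90.4% of 94 changed 4-fold. It called 0.0182% of unchanged genes, over 11145 genes. The simulation drew every sum from a common mean profile scaled to its size, with the same spread for every gene and no library effect. It therefore does not measure the rate of false calls in these data. Some genes are not reported here. Genes named in full were, besides list members, the 12 largest differences in each direction with at least 50 CPM in the higher class and the same direction in both libraries.

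A doublet score against simulated barcode pairs (scikit-learn 1.9.0) marked 20.73% and 12.5% of barcodes in libraries 1 and 2, and 28.77% and 18.1% of lymphatic barcodes, against 27.46% and 12.8% of other endothelial barcodes. Marked barcodes were kept and left out as an alternative. A summed level has a floor of 3 UMIs, 8.77 and 2.1 CPM in lymphatic barcodes of libraries 1 and 2, against 1.78 and 0.427 CPM in other endothelial barcodes. The other alternatives were DESeq2 1.42.0, its size factors, no filter on low counts, no block, 4 other cell classes in the fit, each library alone, at least 5 marker UMIs, at least 1000 UMIs per barcode and Ttn with Ryr2 below 0.5%. At least 10 marker UMIs and fewer than 10 liver UMIs were added after the data were seen.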

Additional observations from a re-analysis of the deposited data

Results flagged for a closer look

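GFP, a feature of the table that no comparison used, had 4 UMIs in lymphatic barcodes of library 1, 11.7 CPM (exact Poisson interval 3.19 to 29.9), and 6 UMIs in those of library 2, 4.2 CPM (1.54 to 9.14). The series has no control samples, and these counts lie above the 3 UMIs that a count of 0 allows. Other endothelial barcodes had 3.56 and 2.42 CPM, cardiomyocyte barcodes 40.2 and 43.0 CPM, and macrophage barcodes 0 in both libraries. Cardiomyocyte markers summed to 12000 and 2950 CPM in lymphatic barcodes, against 10600 and 2290 CPM in other endothelial barcodes. The labels do not say where GFP comes from, and the part of heart muscle transcripts in its counts was not tested.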

How the results depend on the processing

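The counts of called genes depended most on the library block. The sums are paired because the classes were captured together in each library, and without the replicate block 26 genes were called higher and 1 lower against other endothelial barcodes, 164 and 199 against vascular-gated and 68 and 25 against endocardial-gated barcodes. DESeq2 with the block called 285 and 273 genes, 403 and 381, and 290 and 272 in the same order. With 4 other cell classes in the fit, 337 genes were called higher and 346 lower against other endothelial barcodes. Against endocardial-gated barcodes 675 genes were called lower with at least 10 marker UMIs. DESeq2 size factors, no filter on low counts, at least 1000 UMIs, at least 5 marker UMIs, Ttn with Ryr2 below 0.5%, leaving out doublet-marked barcodes and leaving out barcodes with 10 or more liver UMIs kept every count within 1.5 times of the value reported.

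The share of barcodes in library 1 was 0.385% with at least 5 marker UMIs, 0.385% with Ttn and Ryr2 below 0.5%, 0.408% without doublet-marked barcodes and 0.275% with at least 10 marker UMIs. In library 2 it was 2.01% with at least 5 marker UMIs, 2.01% without doublet-marked barcodes and 1.79% with at least 10. Of 330 gene values, 166 were called, and 3 of these changed sign under some setting, as did 60 of those not called. With at least 10 marker UMIs Efemp1 was at -0.067 and Ppara at -0.36, Notch3, which was not called, was called at -1.43 with Ttn and Ryr2 below 0.5%, and Id2 ranged from -1.89 without replicate 1 to 0.10 without replicate 2. The cause was not tested. With at least 10 marker UMIs 296 gene values kept their side of the threshold, of which 24, none of them called, changed sign, 21 passed it and 11 no longer did, and without the block 112 no longer did. Values from 1 library alone have no test. The lymphatic sum of library 1 held 342014 UMIs, so a level under 8.77 CPM lies below its floor.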
